A study of Mus musculus with 8 samples.

Results

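Oxidative phosphorylation is carried out by 5 protein complexes of the inner mitochondrial membrane, and the binding of the chromatin remodeller BRG1 around the nuclear genes for their subunits was examined in mouse hearts after myocardial infarction (MI). Members were the protein-coding genes of chr1 to chr19 in the GENCODE annotation of mm9 whose symbols begin with Nduf and a, b, c, s or v, with Uqcr, with Cox and a digit from 4 to 8, or with Atp5, together with Sdha, Sdhb, Sdhc and Sdhd. This gave 89 annotated genes of 21418, with 88 symbols, because Ndufb8 has 2 entries at overlapping positions on chr19. The ChIP-seq experiment used adult C57BL/6 mice of 10 to 12 weeks by the sample labels. In all animals MI was caused by tying off the left anterior descending artery for good, and hearts were collected on day 4. Mice of the primed group received thymosin β4 (Tβ4), a small actin-binding peptide, at 12 mg per kg each day for 1 week before the operation with further injections from the operation on, and the other group received the vehicle PBS in the same way. Each group had 2 BRG1 ChIP libraries and 2 input libraries, 8 in all. The data used here are the deposited list of 524614 regions described as BRG1-enriched relative to input for injured hearts primed with Tβ4. It gives positions without a height or a score and does not separate the duplicates, so every value below describes 1 list, its sequencing depth and replicate spread are unknown, and no test was made. PBS-primed hearts were not analysed here, and cells of different types in the heart cannot be told apart.

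Electrons from NADH enter the respiratory chain at complex I, and those from succinate enter at complex II. Both pass to complex III and by way of cytochrome c to complex IV, cytochrome c oxidase, where oxygen is reduced. The proton gradient built on the way drives complex V, the ATP synthase. Heart muscle depends on this pathway for most of its ATP, and some subunits of cytochrome c oxidase have a separate isoform for heart and skeletal muscle, encoded by a gene of its own. BRG1 is the ATPase of SWI/SNF complexes, which move and evict nucleosomes.

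Regions were spread over nearly every member, but the covered share differed widely from gene to gene. Here the window of a gene is its body with 5 kb on each side, and the covered share is the percentage of its bases that lie inside listed regions. At least 1 region lay in the window of 88 of 89 members, against 97.6% of all protein-coding genes, and in the body of 78 members, against 84.3%. The exception was Cox8c, a testis isoform of a cytochrome c oxidase subunit, with 0 regions in its window. The median covered share was 29.2% over the members and 25.2% over all protein-coding genes, and the median density was 0.28 and 0.23 regions per kb. Regions of the list covered 26.1% of all autosomal bases, and 29.0% of the members' windows after overlapping windows were merged. A region in a gene window is therefore common in this list and does not by itself set a member apart. Window shares ran from 0% at Cox8c to 84.5% at Atp5k, which encodes the small e subunit of the ATP synthase membrane part. With 25.0% of all genes above the upper quartile of 35.2% by definition, 31 members lay above it, a share of 34.8% with a 95% Wilson interval of 25.7 to 45.2%. A further 23 members lay below the lower quartile of 15.6%, where again 25.0% of all genes lie. Such intervals reflect the number of genes alone and take each gene as an independent draw. The members' windows held 620 distinct regions with a median length of 570 bp, against 600 bp in the whole list, and 6 of these regions lay in the windows of 2 members.

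**Figure D1:**
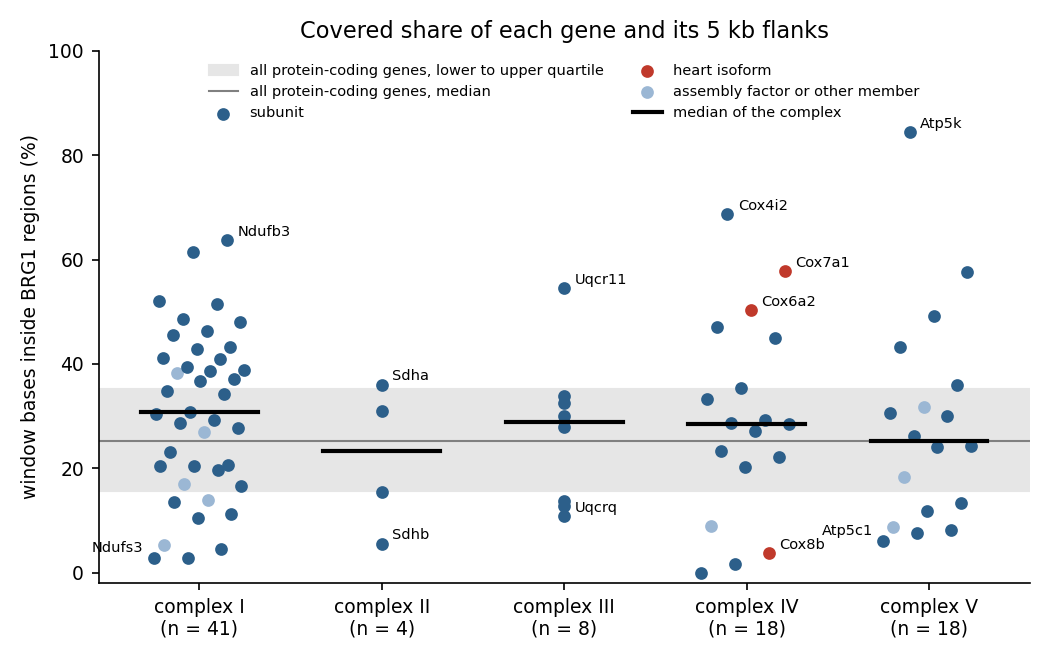
Covered share of each gene window (vertical axis, %), which is the body with 5 kb flanks, for each of the 89 annotated genes, by complex, with the median of each complex as a bar. The grey band runs from the lower to the upper quartile of all protein-coding genes, and genes of every complex lie on both sides of it.

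The complexes overlapped in their values. Medians of the covered share were 30.8% for the 41 members of complex I, 23.2% for the 4 of complex II, 29.0% for the 8 of complex III, 28.6% for the 18 of complex IV and 25.3% for the 18 of complex V. Complex I held 18 of the 31 members above the upper quartile, which is 43.9% of its genes with an interval of 29.9 to 59.0%. The accessory subunits, which surround the catalytic core, had a median of 34.7% over 29 annotated genes. Of these, 14, or 48.3%, lay above the upper quartile, the 2 overlapping entries of Ndufb8 included. Of the 7 core genes 3, or 42.9%, did so. Shares of single genes given from here on hold for the stated windows, since for 47 named genes 99 of 564 values recomputed with other settings moved by more than 1.5 times. Ndufb3, an accessory subunit of the membrane arm, had the highest share in complex I, with 7 regions over 63.8% of its window at chr1:58643228-58652808 (body, plus strand). Of these, a region of 2400 bp at chr1:58642980-58645379 ran from 248 bp before the start to 2151 bp into the gene, over 287 exonic and 1865 intronic bases. Ndufb5, of the same arm, had 11 regions and a share of 61.4%. The order depends on the setting. With 2 kb on each side Ndufb5 had 77.5% and Ndufb3 65.7%, and with regions within 500 bp joined 70.4% and 68.8%. On the gene body alone these were 78.0% and 74.4%, and Ndufb10 had 81.4%. Ndufb3 was higher with 10 kb on each side, 56.1% against 48.8%, and with regions of at least 600 bp, 63.8% against 59.6%. Lowest among the accessory genes, Ndufb2 had a single region, 2274 bp before its start, and a share of 2.88%.

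The 7 core subunits of complex I carry the flavin and the iron-sulfur clusters or sit close to them. None of the 7 had a region over the start itself, a count of 0 whose Wilson interval reaches 35.4%. Of the 29 annotated accessory genes 9 did, Ndufa4 and the 2 overlapping Ndufb8 entries among them, with an interval of 17.3 to 49.2%. These intervals overlap, and 24.3% of all protein-coding genes had a region over the start. Within 500 bp of the start, a window called the start window here, Ndufs7 and Ndufv1 were among the core genes touched by a region. Regions covered 25.1% of the start window at Ndufs7, which holds the last iron-sulfur cluster, and 29.7% at Ndufv1, which binds NADH. In both genes the nearest region ended upstream of the start, at 307 bp in Ndufs7 and 204 bp in Ndufv1. The start windows of Ndufs1, Ndufs3, Ndufs8 and Ndufv2 held no region. The body and flanks of these genes were nevertheless covered to different degrees. Ndufs8, another iron-sulfur subunit, had a window share of 51.6%. Ndufv2 reached 38.8%, Ndufs1, the largest subunit, 30.5% and Ndufs7 28.7%. Ndufv1 had 13.6% and Ndufs3, in the arm that reaches into the matrix, 2.75%, the lowest value in complex I.

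Among the accessory subunits, 8 symbols had at least 50% of the start window inside regions, and Ndufb8 met this in both of its entries. Start windows were covered to 100% at Ndufa6 and at the second Ndufb8 entry, 98.3% at Ndufb10 and 97.3% at Ndufa7. Ndufa4, named for complex I but since assigned to cytochrome c oxidase, had 85.3%. Ndufb3 followed with 79.0%, Ndufc1 with 73.0%, Ndufb5 with 71.7% and the entry of Ndufb8 that starts at the higher position with 70.0%. At Ndufc1 the region began 1 bp after the start, so the start itself was not covered. Over all complexes, 18 of 89 members were covered to at least 50% in the start window, a share of 20.2% against 23.5% of all protein-coding genes. The 5 remaining members of complex I, the assembly factors Ndufaf1 to Ndufaf4 and the Ndufa4 relative Ndufa4l2, had a median window share of 17.0%, and a region touched the start window only at Ndufaf4.

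Complex II, succinate dehydrogenase, also belongs to the citric acid cycle. Its flavoprotein gene Sdha, at chr13:74459702-74487728 on the minus strand, had 12 regions and a window share of 36.1%, and a region of 4080 bp lay over its start and covered the whole start window. That region, chr13:74484690-74488769, reached 1041 bp upstream and 3038 bp into the gene, over 570 exonic and 2469 intronic bases. Sdhc, a membrane anchor, had 10 regions and a share of 31.0%, with the nearest region 1626 bp upstream of the start. Sdhd, the other anchor, had 5 regions, none of them in the gene body, and a share of 15.4%. Sdhb, the iron-sulfur subunit, had 3 regions and 5.57%. The region nearest to the Sdhb start lay 7979 bp upstream, the largest such distance among the 89 members.

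Complex III, the cytochrome bc1 complex, passes electrons from quinol to cytochrome c. Uqcr11, one of its smallest subunits, combined the highest share of the complex, 54.5%, with the highest density of all members, 0.72 regions per kb from 10 regions, yet its start window held none. The rank by share rests on the 5 kb flanks, since its share was 33.0% with 2 kb on each side, below the 37.9% of Uqcrc1, and fell further on the gene body alone, where Uqcrh had 55.6% and Uqcrc1 42.8%. Uqcrb, which lines the quinone site, was the member of this complex with a region over the start, and 79.4% of its start window was covered. Regions began 79 bp after the start of Uqcrc1 and 70 bp after that of Uqcrc2, the core proteins that anchor the complex on the matrix side. Their window shares were 32.6% and 27.9%. Uqcrfs1, the Rieske iron-sulfur protein, had 3 regions, all of which touched its body, and a share of 12.8%. Uqcrq was lowest with 10.8%.

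Cytochrome c oxidase offers a comparison of isoforms, because Cox6a2, Cox7a1 and Cox8b encode the heart and skeletal muscle forms of subunits whose more widely expressed forms come from Cox6a1, Cox7a2 and Cox8a. The heart isoform genes did not behave alike. Cox6a2 and Cox7a1 were among the most covered members, while Cox8b was among the least. With 2 kb in place of 5 kb on each side, the share of Cox6a2 was 28.6%, near the members' median of 27.3%, and on the gene body alone that of Cox8b was 16.0%. The partners moved as well, with 2 kb on each side to 20.4% for Cox6a1, 27.3% for Cox7a2 and 41.5% for Cox8a, and on the gene body to 19.7%, 15.0% and 9.43%. Cox6a2, a gene of 931 bp at chr7:135348950-135349880 on the minus strand, had 6 regions over 50.3% of its window. A region of 450 bp, chr7:135349440-135349889, lay over its start, with 9 bases upstream, 255 in exons and 186 in introns. Cox7a1, at chr7:30969190-30971047 on the plus strand, had 7 regions over 57.8% of its window. Of its body, 97.3% lay inside a region of 4080 bp, chr7:30969240-30973319, which began 50 bp after the start and ended 2272 bp beyond the gene. Cox8b, at chr7:148084842-148086345 on the minus strand, had 2 regions and a share of 3.70%. The closer of them, 240 bp at chr7:148085640-148085879, lay wholly in an intron from 466 bp after the start.

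**Figure D2:**
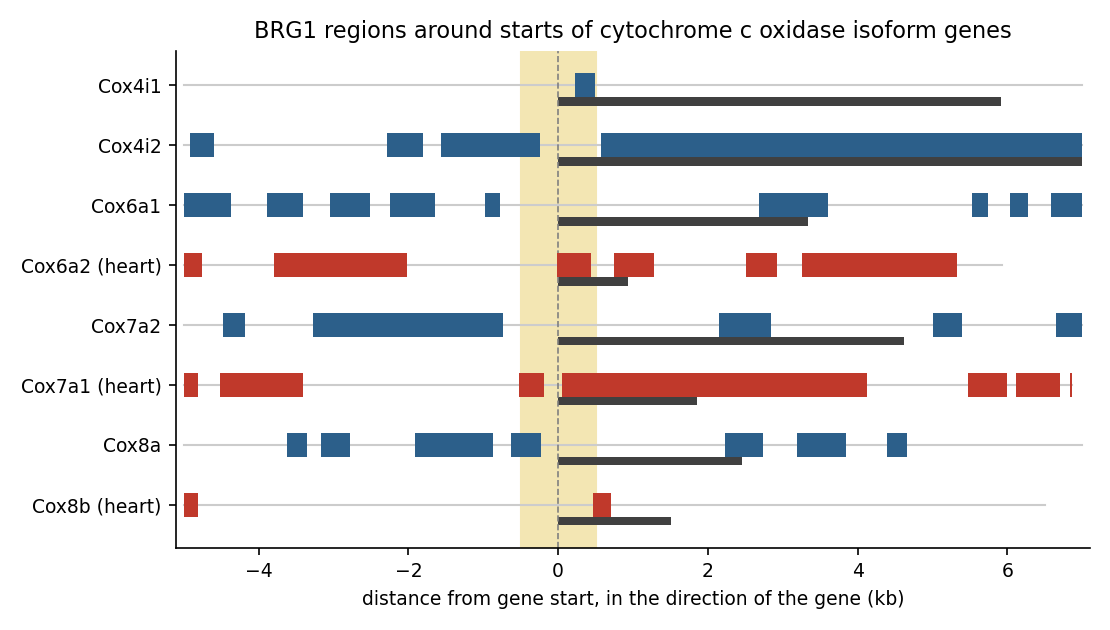
Regions of the list (thick bars; red for the heart isoforms) by distance from the gene start in kb, for cytochrome c oxidase genes with isoforms, drawn from 5 kb upstream to at most 7 kb downstream and no further than 5 kb past the gene end. Dark thin bars are gene bodies and the shaded band is the start window, which holds regions in all 3 heart isoform genes and in Cox4i1, Cox4i2 and Cox8a but not in Cox6a1 or Cox7a2.

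No region lay over the start itself in the 3 widely expressed partners, nor in Cox7a1 and Cox8b. Cox6a1 had 9 regions over 33.3% of its window, and the nearest ended 770 bp before the start. Cox7a2 had 5 regions over 47.2%, the nearest of them 730 bp upstream, and a start window without a region. At Cox8a, 7 regions covered 28.4% of the window, and the nearest ended 234 bp before the start, leaving 26.7% of the start window covered. The start window was touched in all 3 heart isoform genes, where 45.0% of it lay inside regions at Cox6a2, 76.0% at Cox7a1 and 3.50% at Cox8b. This count depends on the setting, since with 250 bp on each side of the start Cox8b held no region there, and with regions of at least 600 bp alone Cox7a1 was the only one of the 3 touched. A count of 3 of 3 has a Wilson interval from 43.9 to 100%, so that the share of 44.2% of all protein-coding genes lies inside it. All 3 heart isoform starts were poor in CpG, with an observed-to-expected ratio below 0.6, as were 11468 of all 21418 protein-coding genes. Of the 89 members, 71 were at or above that value.

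The bases just before the starts of both forms of subunits 7a and 8 are shown because the edge of a region falls inside some of these stretches and not others. Each is the 250 bases upstream of the annotated start in mm9, read 5′ to 3′ on the strand of the gene, with bases inside a listed region in capitals. The positions are chr7:30968940-30969189 (plus strand) for Cox7a1, chr9:79607661-79607910 (minus strand) for Cox7a2, chr7:148086346-148086595 (minus strand) for Cox8b and chr19:7292107-7292356 (minus strand) for Cox8a, none of which overlaps an annotated exon.
Cox7a1: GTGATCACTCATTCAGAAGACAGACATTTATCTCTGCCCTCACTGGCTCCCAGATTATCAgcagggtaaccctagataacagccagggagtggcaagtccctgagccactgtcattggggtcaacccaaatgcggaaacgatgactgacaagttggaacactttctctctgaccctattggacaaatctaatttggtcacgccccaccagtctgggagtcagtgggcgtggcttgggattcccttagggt
Cox7a2: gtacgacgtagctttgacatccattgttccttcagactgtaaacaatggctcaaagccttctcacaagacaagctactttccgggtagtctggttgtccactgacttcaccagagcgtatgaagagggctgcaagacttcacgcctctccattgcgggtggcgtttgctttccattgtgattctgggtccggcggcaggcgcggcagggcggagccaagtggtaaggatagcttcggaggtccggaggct
Cox8b: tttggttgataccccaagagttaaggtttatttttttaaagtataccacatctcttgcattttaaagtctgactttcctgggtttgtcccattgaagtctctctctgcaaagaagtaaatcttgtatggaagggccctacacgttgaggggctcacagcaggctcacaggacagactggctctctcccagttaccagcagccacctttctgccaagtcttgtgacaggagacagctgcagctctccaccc
Cox8a: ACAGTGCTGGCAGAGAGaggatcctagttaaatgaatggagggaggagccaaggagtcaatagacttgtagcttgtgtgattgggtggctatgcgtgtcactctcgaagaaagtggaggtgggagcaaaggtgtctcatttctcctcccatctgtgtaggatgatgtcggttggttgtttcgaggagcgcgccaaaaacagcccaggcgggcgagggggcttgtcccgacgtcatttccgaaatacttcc
Regions reached 60 of the 250 bases at Cox7a1 and 17 at Cox8a, in both cases at the end farther from the gene, and 0 at Cox7a2 and Cox8b. The dinucleotide CG occurred 4 times in the stretch of Cox7a1 and 1 time in that of Cox8b, against 14 times at Cox7a2 and 11 times at Cox8a.

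The remaining subunits of complex IV spanned the whole range. Cox4i1, the common form of the largest nuclear-encoded subunit, had a single region of 270 bp, chr8:123192420-123192689, and a window share of 1.70%, the lowest among members with any region. That region began 230 bp after its start and also lay 408 bp upstream of Cox4nb, a divergent neighbour named after Cox4 whose product is not a subunit of the oxidase. Cox4i2, the form known from lung and induced by hypoxia, had the highest share in the complex, 68.7%. A region of 12210 bp, the longest in any member's window, began 571 bp after the Cox4i2 start and ran past the gene end. Cox7c, which encodes a small membrane subunit, had a single region as well, but this one, chr13:86182830-86188259, covered the entire body and start window and 44.9% of the window. Cox5a had 77.9% of its start window covered by regions that left the start itself free. Cox6b1, which helps to join oxidase dimers, had 9 regions and a share of 27.2%, and its testis form Cox6b2 had 3 regions and 23.4%, both without a region in the start window. The pair differed in narrower windows, with 7.19% and 26.6% for 2 kb on each side and 2.61% and 58.0% for the gene body alone. Cox7a2l, which takes part in supercomplex assembly, had 9 regions, a share of 29.2% and 36.0% of the start window covered.

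In the ATP synthase, the catalytic head F1 is made of 5 kinds of subunit. The genes of its α and β subunits, Atp5a1 and Atp5b, each had 4 regions but shares of 30.6% and 8.17%, and neither start window held a region. The nearest region lay 2839 bp upstream of Atp5a1 and 2471 bp inside Atp5b. Atp5c1, for the γ subunit of the central stalk, had 6 regions and the lowest share in the complex, 6.09%. Atp5d, for the δ subunit, stood apart from these with 12 regions, a density of 0.70 per kb, a share of 43.2% and a region from 127 bp before to 562 bp after its start. Together with a region of 1050 bp that ended 278 bp upstream, it covered 85.0% of the start window. Among the starts of protein-coding transcripts of Atp5d, the most covered had 34.6%. The annotated gene start used here is therefore not the start of a protein-coding transcript. Atp5e, for the ε subunit, had 4 regions and 13.4%, with 48.0% of the start window covered. The 3 genes Atp5g1, Atp5g2 and Atp5g3 encode the same mature c subunit of the membrane rotor. They had shares of 24.2%, 11.9% and 57.6%, and the start window held regions at Atp5g3 alone, where 85.0% of it was covered. Of the stalk and membrane subunits, Atp5k and Atp5f1, which encodes the b subunit of the outer stalk, had a fully covered start window. Atp5k lay inside a region of 6960 bp, chr5:108861390-108868349, that reached 4882 bp upstream. Atp5o, for the protein that joins the outer stalk to the head, had 71 regions, but its annotated gene spans 247290 bp and overlaps other genes, and its share was 26.3%.

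The Atp5g3 start is printed as an example in which a gap between regions lies shortly before the gene and stops 6 bp short of it. These are the 250 bases at chr2:73749384-73749633 of mm9 (minus strand), upstream of the annotated start and outside annotated exons, with bases inside regions in capitals.
Atp5g3: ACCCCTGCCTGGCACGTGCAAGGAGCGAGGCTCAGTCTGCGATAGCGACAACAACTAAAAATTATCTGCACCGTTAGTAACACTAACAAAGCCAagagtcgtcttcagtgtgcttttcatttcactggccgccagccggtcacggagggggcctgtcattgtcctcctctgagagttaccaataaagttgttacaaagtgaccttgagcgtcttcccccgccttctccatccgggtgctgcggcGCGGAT
Regions covered 100 of the 250 bases. The region downstream of the gap, chr2:73744770-73749389, held the whole gene body, and the region upstream, chr2:73749540-73751039, ended 157 bp before the start.

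Near the start the members were covered less than in most bins of their flanks. Regions held 18.6% of member bases in the 100 bp before the start, against 24.4% for all protein-coding genes, and 21.1% in the 100 bp after it, against 24.4%. From 900 to 1000 bp after the start the members reached 33.5%, against 26.8%. In bins of 500 bp the members' highest value was 35.2%, from 3500 to 4000 bp after the start, where all protein-coding genes had 27.2%. The members' lowest value in these bins was 23.3%, from 4000 to 3500 bp before the start, where all protein-coding genes had 26.4%. It lay below the bins just before and just after the start, with 25.5% and 24.4%. Cytosolic ribosomal protein genes, another family of short genes used by every cell, had 28.7% in the last 100 bp before the start. Genes of the members' length range with a CpG-rich start also had their lowest value there, 22.5%, against 27.5% from 900 to 1000 bp before the start. A region touched the start window of 42 of 89 members, or 47.2% (37.2 to 57.5%), against 44.2% of all protein-coding genes. The mean covered share of the start window was 25.0% for members and 25.2% for all. A region lay over the start of 18 members, or 20.2% (13.2 to 29.7%), below the 24.3% of all genes but with that value inside the interval. With a window of 1000 bp on each side the touched share rose to 68.5% of members (58.3 to 77.2%) and 55.8% of all genes. In the 71 members without a region over the start, the nearest lay upstream in 39, or 54.9% (43.4 to 66.0%), and downstream in 32, at a median distance of 770 bp. Of the 16220 such genes among all protein-coding genes, it lay upstream in 51.0%, at a median distance of 1354 bp. By gene part, regions covered 28.9% of the 5 kb upstream of members, 24.8% of their exons, 29.3% of their introns and 29.6% of the 5 kb downstream. The same values for all protein-coding genes were 26.6%, 26.6%, 27.6% and 26.4%.

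**Figure D3:**
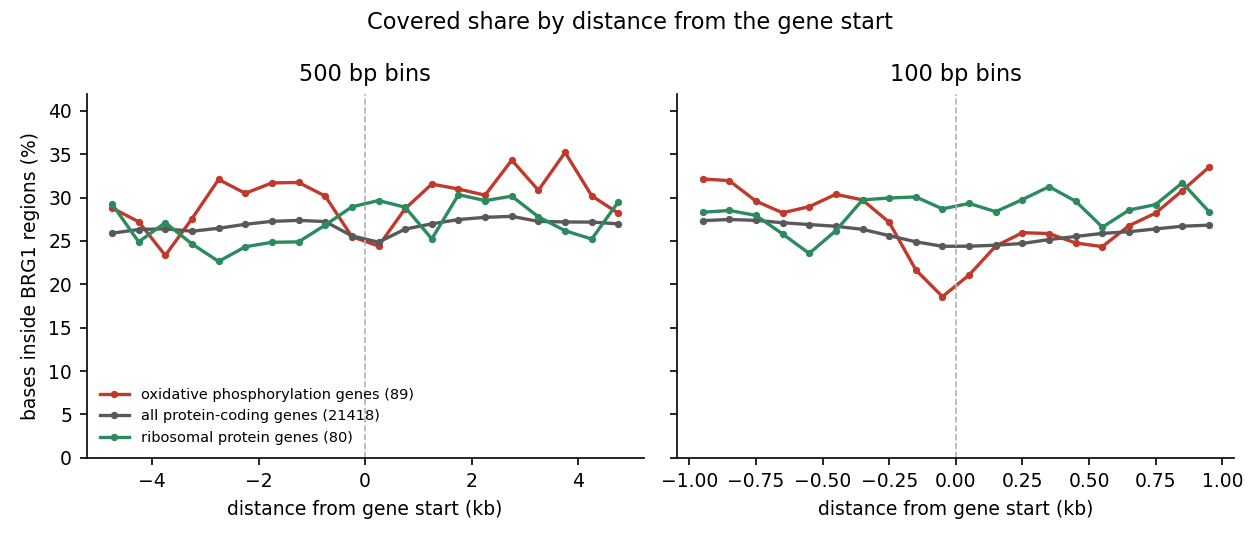
Percentage of bases inside regions (vertical axis) by distance from the gene start in kb, in bins of 500 bp (left) and 100 bp (right). The line of the 89 members falls to 18.6% just before the start and exceeds 30% in many flanking bins, while the line of all 21418 protein-coding genes stays between 24.4% and 27.8% and that of 80 ribosomal protein genes shows no low point there.

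Length and CpG content of the start distinguish these genes from the average. The median member was 7512 bp long, against 15535 bp for all protein-coding genes. Among the 9990 genes between the 10th and 90th percentile of the members' lengths, the median window share was 23.6%, and over the 71 members in that range it was 30.0%. Above the upper quartile of all genes lay 27.1% of the 9990 and 35.2% (25.1 to 46.8%) of the 71. Below the lower quartile lay 3058 of the 9990 and 20 of the 71. Genes with a CpG-rich start numbered 9950, and a region touched the start window in 46.1% of them, against 43.7% of the 71 members with such a start. The 18 members with a CpG-poor start, among them Cox6a2, Cox7a1, Cox8b, Cox4i2 and Atp5j2, had a median window share of 36.9%, and 11 had a touched start window, a share of 61.1% with an interval of 38.6 to 79.7%. Over all 11468 protein-coding genes with a CpG-poor start, the median window share was 24.2% and 42.5% of start windows were touched, which lies inside that interval. Over the members, the covered share of the start window and the CpG ratio had a Pearson r of -0.18 and a Spearman rho of -0.23 (n = 89 genes of 1 list, which share its unknown depth). A start on the opposite strand within 1 kb upstream was found in 22 members, among them Ndufs1 with Eef1b2 and Sdhd with Timm8b, and in 1562 of all 21418 genes. The median window share was 30.7% for these 22 members and 28.7% for the other 67. The median density was lower in the 22, 0.22 against 0.31 regions per kb. So was the part above the upper quartile, 22.7% (10.1 to 43.4%) against 38.8% (28.0 to 50.8%), but these intervals overlap. Over all protein-coding genes both orders were reversed. Genes with such a start upstream had 0.245 regions per kb and 26.2% above the upper quartile, the others 0.228 and 24.9%.

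Several of the densest members lay in crowded stretches of the genome. The number of protein-coding starts within 500 kb on each side and the density of regions had a Pearson r of 0.39 and a Spearman rho of 0.24 over the 89 members, which are not independent because some are neighbours. Atp5d, Ndufs7 and Uqcr11, at 0.70, 0.57 and 0.72 regions per kb, all lie on chr10 between 79601377 and 79869575, with 62, 59 and 59 starts around them. Cox7a1, at 0.59 regions per kb, had 53 starts around it. Cox8b, at 0.17 regions per kb, had 50, and Cox6a1 reached 0.67 with 30. The median number of starts was 20 for members and 17 for all protein-coding genes. Other dense members did not exceed the members' median, with 20 starts at Atp5j2 (0.60 regions per kb), 11 at Ndufs5 (0.52) and 9 at Ndufc1 (0.49). Between the covered share within 500 kb on each side of the start and the window share, Pearson r was -0.037 and Spearman rho -0.0022 (n = 89). The part of gene crowding in these densities was not tested.

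**Figure D4:**
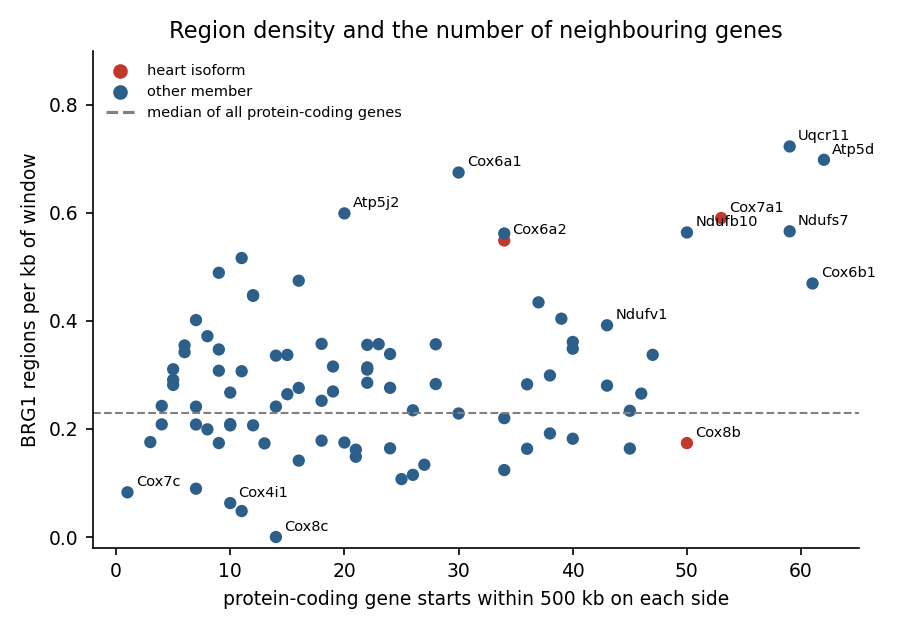
Regions per kb of the gene window (vertical axis) against the number of protein-coding gene starts within 500 kb on each side, for the 89 members, with the heart isoforms in red. Uqcr11 and Atp5d stand at the upper right, and Cox8b lies below the dashed median of all protein-coding genes at 50 neighbouring starts.

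Other genes of the pathway gave values in the same range. Over 46 genes for electron carriers, the citric acid cycle, assembly and regulators of mitochondrial genes, the median window share was 28.7%, and 19 had a touched start window, or 41.3% (28.3 to 55.7%), against 44.2% of all protein-coding genes. Of the 7 carriers and partners, Slc25a4, the adenine nucleotide carrier of heart and muscle, had the highest window share, 67.1%, without a region in its start window, while Cycs, cytochrome c, had 46.6% and a fully covered start window. Among 12 genes of the citric acid cycle, 7 start windows were touched, and Idh3b, a subunit of isocitrate dehydrogenase, had the highest window share with 56.3%. Of 16 assembly genes, 8 start windows were touched, and those of Cox11, Sco2 and Tmem70 were fully covered. Among 11 regulators, regions touched the start windows of Nrf1 and Yy1 and of none of the other 9, which include Ppargc1a, Esrra, Tfam and Gabpa. The interval of the 11 regulators, 5.14 to 47.7%, includes the 44.2% of all genes, and so do those of the carriers (8.22 to 64.1%), the citric acid cycle (32.0 to 80.7%) and the assembly genes (28.0 to 72.0%). Gabpa, for a subunit of the ETS factor GABP, overlaps at its 5′ end, on the opposite strand, with Atp5j, for a stalk subunit of the ATP synthase, and neither start window held a region. Atp5j had a window share of 30.1% and Gabpa one of 41.1%. The 80 cytosolic ribosomal protein genes had a median window share of 24.3% and the 17 annotated sarcomere genes one of 30.6%. Start windows were touched in 48.8% (38.1 to 59.5%) of the former and 41.2% (21.6 to 64.0%) of the latter, both intervals overlapping that of the members.

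**Figure D5:**
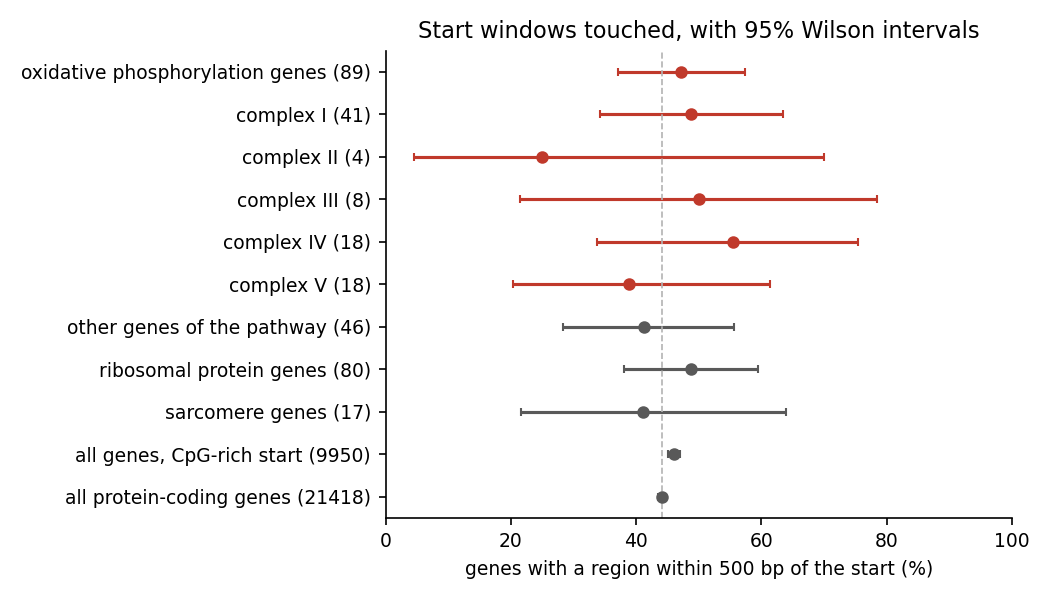
Percentage of genes with a region within 500 bp of the start, with 95% Wilson intervals (counting error only) and the number of genes in brackets. The interval of every group shown except that of genes with a CpG-rich start spans the dashed line, the 44.2% of all protein-coding genes.

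The letters of binding motifs for factors known to act on respiratory genes were searched on both strands in the 250 bases before the start, in the RefSeq promoter table of GRCm38.p6. Of the 88 symbols, 71 had an entry, 3 of them under a newer name, and 17 had none, among them Atp5a1, Atp5l-ps1, Cox4i1, Cox4i2, Cox4nb, Cox6a2, Cox6c, Cox8c, Ndufa2, Ndufa4l2, Ndufb9, Ndufs1, Sdhc, Uqcrb, Uqcrc2 and Uqcrq. The NRF1 letters GCATGCGC were found in 9 of the 71, or 12.7% (6.81 to 22.4%), against 2.32% of all 27025 entries and 2.99% of the 17492 protein-coding ones. These were Atp5g2, Atp5k, Atp5l, Cox6a1, Ndufa11, Ndufa6, Ndufa8, Ndufaf4 and Sdhb. The ETS letters CCGGAAG were found in 12, or 16.9% (9.94 to 27.3%), against 7.05% of all and 9.13% of protein-coding entries. The NF-Y letters CCAAT were found in 32, or 45.1% (34.0 to 56.6%), against 34.5% and 36.3%. The ERR letters TCAAGGTCA were found in Atp5g3 alone, against 0.366% of all entries, and the YY1 letters AAGATGGCG in none, against 0.607%. The NRF1, ETS and YY1 letters contain CG, and 71 of 89 members had a CpG-rich start, against 9950 of 21418 genes. Shares among entries with a CpG-rich start were not computed, so the part of CpG content in these shares was not tested. A region touched the start window in 3 of the 9 members with the NRF1 letters, Atp5k, Ndufa6 and Ndufaf4, against 29 of the 62 without them, and in 3 of the 12 with the ETS letters, Atp5e, Ndufb6 and Ndufb7, against 29 of 59. For the NF-Y letters these counts were 10 of 32 and 22 of 39. The mean covered share of the start window was 8.96% with the ETS letters and 29.6% without them, 23.9% with and 26.5% without the NRF1 letters, and 19.3% with and 31.8% without the NF-Y letters. Over all protein-coding genes, whatever their letters, 44.2% of start windows were touched and the mean covered share was 25.2%. The differences by motif rest on few members, carry no interval and were not tested. No value for all genes with or without each motif is given here. The 5 stretches printed above equal the same bases in this table. Of them, Cox7a1, Cox8a and Atp5g3 held the NF-Y letters, and Cox7a2 and Cox8b held none of the 5 motifs. A match marks only that the letters are present in this window, and its absence says nothing about the factor.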

How the data were processed

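BRG1 ChIP-seq of PBS- and Tβ4-primed, injured mouse hearts comprised 2 ChIP and 2 input libraries per group, assigned to groups from the sample labels. Per the submitters' processing notes, the authors mapped reads with Bowtie 1.0.0 to mm9 and called regions with MACS2 2.0.10. The deposited list gives start and end positions in bp, with no count, score or p-value. The study's methods name the bdgcomp step of MACS2, but the list is named like output of its comparison between conditions, so what qualified a region is uncertain. How the duplicates were combined is not given in the sources used here. Lists for PBS-primed hearts and inputs were not analysed here, depth is unknown, and no test was possible.

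Regions were counted with at least 1 bp of overlap over each gene body with 5 kb on each side and over 500 bp on each side of the annotated start, in mm9 with the matching GENCODE annotation. Counting was tested on simulated regions. Python 3.11.15, numpy 2.4.6, pandas 2.3.3, scipy 1.17.1, pysam 0.24.0, samtools 1.23.1 and matplotlib 3.10.9 were used. The 95% Wilson intervals given with shares of genes reflect counting error and no other source of spread.

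Members, gene lists and compared groups were chosen with earlier results of these data known. By rule, the text names the heart isoforms and their partners, the Sdh genes, the core subunits of complex I, Uqcrc1, Uqcrc2, Uqcrfs1, the F1 subunits, the highest and lowest window share in each complex, members with at least 50% of the start window covered and members without a region. A gene that falls under this rule is not reported here. Others were named after their values were seen. Alternatives joined regions within 500 bp, left out long or short regions, changed windows and starts, and left out members that are not subunits, overlap another member or exceed 100 kb. Sequences were read from mm9, and motifs were searched in the first entry of each gene in the RefSeq promoter table.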

Additional observations from a re-analysis of the deposited data

How the results depend on the processing

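The 4 main results were the median window share, the median density, the mean covered share of the start window and the share of start windows touched. Over 42 alternative settings of these, 38 stayed within 1.5 times the main value or, for the touched share, within its Wilson interval. With only regions of at least 600 bp, the median density fell to 0.14 regions per kb (0.11 for all protein-coding genes) and the touched share was 30.3% (31.2%), as fewer regions remain by construction. The touched share was 68.5% (55.8% of all genes) with 1000 bp on each side and 20.2% (23.5%) when 50% of the window had to be covered. The window share lay between 22.7 and 32.4% and exceeded that of all genes in 10 of 10 settings, and the density did so in 11 of 11. The mean covered share of the start window, between 19.7 and 27.5%, exceeded that of all genes in 3 of 10 settings, so that its order against all genes is not settled, and the touched share in 8 of 11. For 47 named genes, 99 of 564 recomputed shares moved by more than 1.5 times. With regions of at least 600 bp alone, the start window of Cox6a2 had 0% covered and the window of Cox8b 0%. Leaving out the second Ndufb8 entry and Atp5l-ps1, or the members longer than 100 kb, was chosen after seeing the data. No stricter score could be set because the list has none. No paired analysis was possible because the result comes from no test and the list does not separate the duplicates.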
